A study of Mus musculus with 6 samples.

Results

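The collagen genes that are not part of the cartilage set were examined in RNA-seq libraries of mouse primary articular chondrocytes, the cells that build joint cartilage. Members were all rows of the deposited expression table whose symbol had the form of a collagen chain gene, without the cartilage collagens Col2a1, Col9a1, Col9a2, Col9a3, Col10a1, Col11a1, Col11a2 and Col27a1. This gave 36 genes of the 24346 in the table, which lists 44 collagen genes in all. They were grouped as fibrillar (7 genes), basement membrane (6), fibril-associated or FACIT (6), beaded filament (6) and other (11). The compared libraries were 3 from cells stimulated with semaphorin 4D (Sema4D), a membrane-bound or shed ligand of plexin-B receptors, and 3 from cells without it (control). All 6 came from cartilage of ICR mice at postnatal day 4. No source used here gives the dose, the length of stimulation or how many mice or cultures stood behind the libraries, so p-values measure the spread between libraries, which may be technical.

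Collagens are secreted or membrane proteins whose chains wind into a helix of 3 chains, and a given collagen type needs particular chains. Type I forms thick fibrils in fibrous tissue, bone and skin, and type III mixes with it in soft fibrous tissue. Type V is built into type I fibrils and limits their diameter. Type IV forms the sheet of basement membranes. FACIT collagens sit on fibril surfaces, and type VI forms beaded filaments around cells, which in cartilage are concentrated in the pericellular matrix. In cartilage the fibrils are made mainly of types II, IX and XI, and a gain of type I over type II is widely used as a sign that cultured chondrocytes lose their phenotype.

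Expression was read as FPKM, fragments per kilobase of transcript scaled to the mapped fragments of the library, which allows levels of different genes to be compared. Depth, estimated from the steps between low values, was 1.4e+07 to 1.66e+07 fragments in the Sema4D libraries and 1.25e+07 to 1.61e+07 in the control libraries. Of the chondrocyte markers chosen for this work, 7 were in the table, and their summed level was 9936 to 10757 FPKM in Sema4D libraries and 12259 to 13264 FPKM in control libraries, Col2a1 making up most of it. All 7 were lower with Sema4D. The 6 fibroblast markers summed to 637 to 663 FPKM in Sema4D libraries and 433 to 472 FPKM in control libraries. Among them Pdgfra, Lum and Dcn were higher with Sema4D, and Thy1 and Dpt lower. The 4 tendon and ligament markers summed to 726 to 751 FPKM with Sema4D and 911 to 945 FPKM in control. Nearly all of that sum was Fmod, at 708 to 729 FPKM with Sema4D and 878 to 912 FPKM in control. The 6 osteoblast markers summed to 1.59 to 2.68 FPKM with Sema4D and 2.39 to 2.88 FPKM in control. Endothelial (6 markers) and epithelial (4 markers) sums were at most 0.447 FPKM in any library. The 6 mural and smooth muscle markers summed to 117.3 to 121.6 FPKM with Sema4D and 111.7 to 119.4 FPKM in control. Nearly all of that sum was Acta2, which was higher with Sema4D, and Cspg4, which was lower. Myh11, Des and Cnn1, at 1.16 FPKM or less in every library, were also lower without overlap, and the groups overlapped for Rgs5. The 6 macrophage markers summed to 19.6 to 21.98 FPKM with Sema4D and 22.9 to 30.4 FPKM in control. Most of that sum was Lyz2, at 14.8 to 17.3 FPKM with Sema4D and 18.5 to 25.3 FPKM in control. Tyrobp was also lower with Sema4D. Adgre1 was higher, at 0.563 FPKM or more with Sema4D and 0.268 FPKM or less in control. The groups overlapped for Cd68, Csf1r and Ptprc, so the macrophage markers did not move together. The 5 Schwann and neural markers, nearly all of it S100b, summed to 47.3 to 50.8 FPKM with Sema4D and 78.9 to 80.8 FPKM in control. No marker was at 0 in all 6 libraries. The part of these shifts in the collagen values was not tested, and in bulk RNA fewer cells of a type and less RNA per cell cannot be told apart.

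Of the 36 collagen genes, 22 averaged 1 FPKM or more across the 6 libraries and were tested in a limma fit of log2(FPKM + 1) across all 11603 genes past that filter. With Sema4D 6 rose and 9 fell at an adjusted p under 0.05 (Benjamini-Hochberg over all tested genes), and 7 were not past the threshold. The share called was 68.2% of the tested members, against 46.7% of all tested genes. Those that rose were 27.3% of the tested members, against a background of 24.5%, and those that fell 40.9%, against a background of 22.2%. The groups did not overlap for 17 of the 22 (77.3%), against 56.6% of all tested genes. The median log2 fold change was -0.11 over the tested members and 0.01 over all tested genes. The other 14 members were below the filter. Col26a1 passed it only through the control libraries, since its mean with Sema4D was 0.755 FPKM, and without it 8 of 21 tested members fell (38.1%). With a filter at a mean of 5 FPKM, 7 of 19 tested members rose and 6 fell, beside 2329 rises and 1939 falls among 8523 genes. After quantile normalization, which equalizes the whole distribution of values between libraries, 6 members rose and 12 fell. Beside them 2167 of all 11603 tested genes rose and 3415 fell, so 38.8% of all calls were rises, against 52.4% without that normalization.

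**Figure D1:**
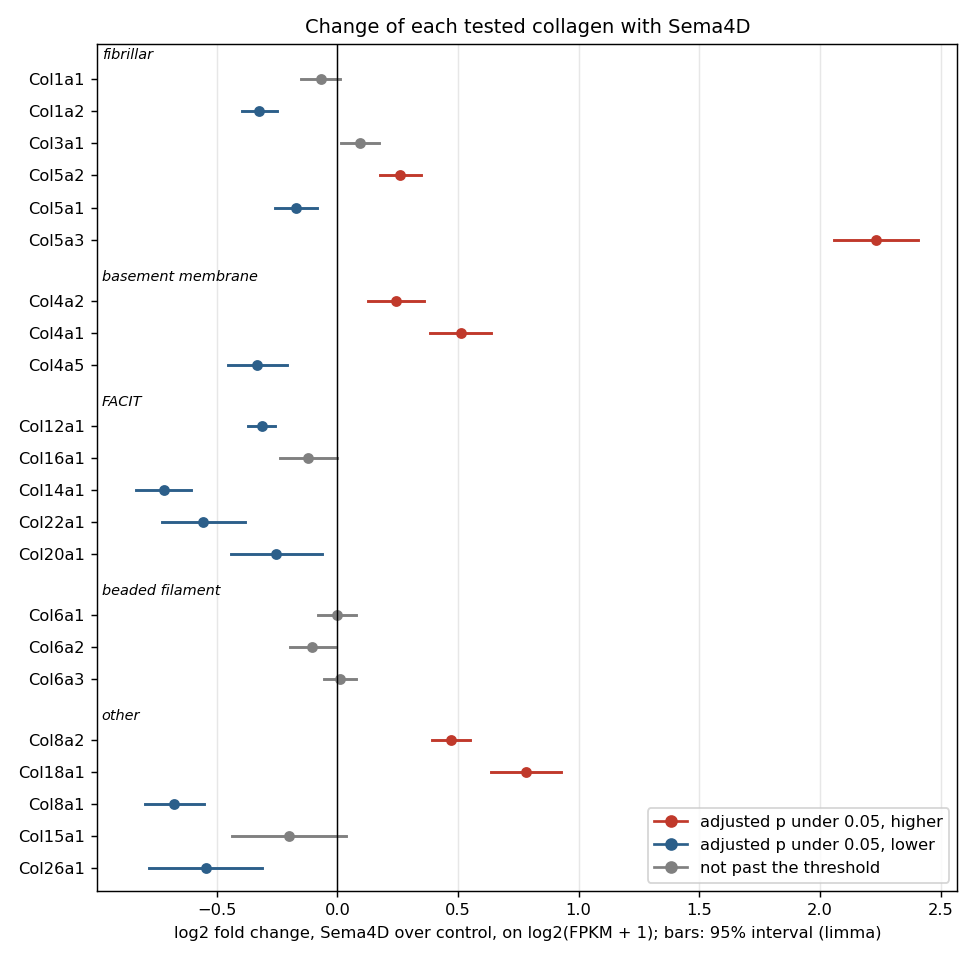
Log2 fold change of each of the 22 tested collagens (points) with its 95% interval from limma (bars), by class, on the log2(FPKM + 1) scale. Positive values mean higher with Sema4D. Col5a3 stands at 2.23, Col18a1 at 0.78, Col4a1 at 0.51 and Col8a2 at 0.47, while Col14a1 at -0.72 and Col8a1 at -0.68 are the lowest.

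The fibrillar collagens were the most abundant members. They made up 84.2% ± 0.0927 of the summed FPKM of all 36 members in Sema4D libraries and 84.6% ± 0.0473 in control libraries (mean ± SD, n = 3 per group, as throughout). Col1a1, the alpha1 chain of type I collagen (chromosome 11, 94936224 to 94953042 in mm10), had 3906, 3727 and 3828 FPKM in the Sema4D libraries and 3831, 4130 and 4073 FPKM in the control libraries. The groups overlapped, and the change was not past the threshold (log2 fold change -0.07, SE 0.035, adjusted p = 0.138; -0.16 after quantile normalization). Without control replicate 1 Col1a1 passed (-0.10, adjusted p = 0.0261; the alternatives spanned 0.0261 to 0.367). Col1a2, the alpha2 chain (chromosome 6, 4505618 to 4541543), had 2882, 2771 and 2819 FPKM with Sema4D and 3406, 3626 and 3567 FPKM in control. Every Sema4D library was below every control library, and Col1a2 fell (-0.32, SE 0.031, adjusted p = 5.69e-05).

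Col1a1 and Col1a2 encode chains of the same heterotrimer, and their ratio did not overlap between the groups. Col1a1 stood at 1.36, 1.35 and 1.36 times Col1a2 in the Sema4D libraries and at 1.12, 1.14 and 1.14 times in the control libraries. Such ratios are taken within a library, so they do not depend on scaling between libraries. For this and every other sum, share or ratio per library an exact two-sided permutation test was run, 29 in all. With 3 libraries against 3 the smallest p it can give is 0.10, so none can pass the threshold, and a p of 0.10 means only that the groups did not overlap. The exact p of the Col1a1 to Col1a2 ratio was 0.10. Col1a1 and Col1a2 together took 59.5% ± 0.340 of the members' summed FPKM with Sema4D and 63.6% ± 0.217 in control (exact p = 0.10).

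Col3a1, the chain of type III collagen, which mixes with type I in soft fibrous tissue (chromosome 1, 45311538 to 45349706), had 1204, 1148 and 1147 FPKM with Sema4D and 1061, 1137 and 1079 FPKM in control. The groups did not overlap, yet the gene lay just outside the threshold (0.09, SE 0.034, adjusted p = 0.0517). It passed with a pseudocount of 0.1 (0.0481), a mean of at least 5 FPKM (0.0432) and without control replicate 2 (0.0234), and its adjusted p was 0.860 after quantile normalization. Its ratio to Col1a1 was 0.308, 0.308 and 0.2996 in the Sema4D libraries and 0.277, 0.275 and 0.265 in the control libraries, with no overlap (exact p = 0.10).

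The type V chains moved in different directions. Col5a3, which encodes the alpha3 chain of a minor type V form (chromosome 9, 20770050 to 20815117), had 62.2, 55.3 and 55.8 FPKM in the Sema4D libraries and 10.7, 12.996 and 10.9 FPKM in the control libraries. This was the largest change of any tested member, 5.01-fold by mean FPKM (log2 fold change 2.23, SE 0.076, adjusted p = 9.74e-08). Col5a2, the alpha2 chain, which lies next to Col3a1 on chromosome 1 (45374331 to 45503282), had 1275, 1236 and 1181 FPKM with Sema4D and 988, 1056 and 1035 FPKM in control. It rose by a smaller amount (0.26, SE 0.037, adjusted p = 0.000548), with no overlap between the groups. Col5a1, the alpha1 chain found in every common type V molecule (chromosome 2, 27886381 to 28039510), had 322, 304 and 311 FPKM with Sema4D and 336, 366 and 354 FPKM in control. It fell (-0.17, SE 0.037, adjusted p = 0.00558), again without overlap, and its value was -0.31 after quantile normalization. Its exons share 99 and 113 nucleotides with a pair of antisense genes in GENCODE M21, where its longest transcript has 8406, and reads there cannot be told apart. Among other members with such overlaps, Col3a1 shares 141 nucleotides and Col20a1 79 with a gene on the same strand.

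Within each library the type V balance therefore differed between the groups. The Col5a1 to Col5a2 ratio was 0.252, 0.246 and 0.263 in Sema4D libraries and 0.340, 0.346 and 0.342 in control libraries. The Col5a3 to Col5a1 ratio was 0.185 ± 0.00741 with Sema4D and 0.0327 ± 0.00252 in control. Col5a3 made up 3.75%, 3.46% and 3.61% of the summed type V chain FPKM in Sema4D libraries and 0.801%, 0.906% and 0.777% in control libraries. Even after its rise Col5a3 thus stayed the least abundant type V chain. These 3 measures had exact p = 0.10 each, and those with Col5a3 were chosen after its values were seen.

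**Figure D2:**
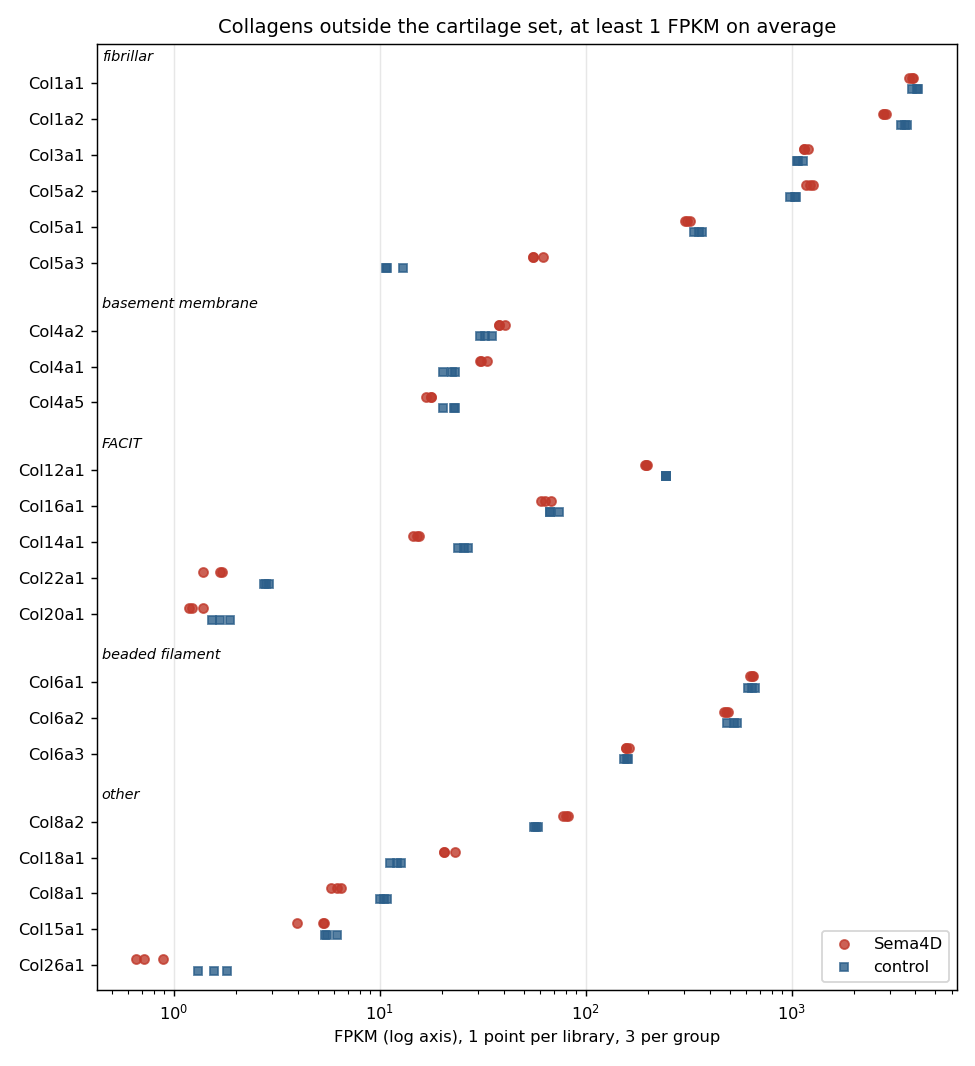
FPKM of the 22 tested collagens in each library, on a log axis, by class. Sema4D libraries are circles and control libraries squares, 3 per group. Type I chains lie at 2771 to 4130 FPKM, and Col5a3 is the gene whose groups lie farthest apart.

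Among the basement membrane collagens, 2 rose and 1 fell, where 24.5% of all tested genes rose and 22.2% fell, and the other 3 were below the filter. Col4a1 and Col4a2 encode the chains of the common type IV molecule and are read in opposite directions from neighbouring start sites. Col4a1 (chromosome 8, 11198423 to 11312889) had 33.2, 31.1 and 30.8 FPKM with Sema4D and 20.2, 23.2 and 22.5 FPKM in control. It rose 1.44-fold by mean FPKM (log2 fold change 0.51, SE 0.055, adjusted p = 0.000108), and the groups did not overlap. Col4a2 (chromosome 8, 11312805 to 11449287) had 40.5, 38.0 and 38.0 FPKM with Sema4D and 30.7, 34.9 and 32.6 FPKM in control. It rose 1.19-fold (0.24, SE 0.051, adjusted p = 0.00473), also without overlap. Their exons overlap by 22 nucleotides in GENCODE M21, and without a stated strand setting reads there cannot be told apart. The Col4a1 to Col4a2 ratio was 0.820, 0.818 and 0.811 in Sema4D libraries and 0.660, 0.665 and 0.690 in control libraries (exact p = 0.10), so the pair rose by unequal amounts.

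Col4a5 and Col4a6, the X-linked pair whose chains are found in specialised basement membranes, had lower values with Sema4D. Col4a5 (chromosome X, 141475370 to 141689236) had 17.7, 16.7 and 17.7 FPKM with Sema4D and 20.4, 22.9 and 23.2 FPKM in control. It fell (-0.33, SE 0.054, adjusted p = 0.00119), with no overlap. The Col4a5 to Col4a1 ratio was 0.548 ± 0.0221 with Sema4D and 1.01 ± 0.0226 in control, where the levels of the genes were about equal (exact p = 0.10, chosen after the values were seen). Col4a6 had 0.896, 0.905 and 0.601 FPKM with Sema4D and 1.11, 1.21 and 1.23 FPKM in control. Its mean over all 6 libraries was 0.992 FPKM, just below the filter, and with no filter it would be called lower (-0.28, adjusted p = 0.0354). Col4a3 and Col4a4, chains of the kidney glomerulus, were at 0.188 FPKM or less in every library. The 6 endothelial markers, a cell type rich in type IV collagen, summed to 0.131 to 0.307 FPKM with Sema4D and 0.0652 to 0.242 FPKM in control.

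Promoter windows of 300 bases, from 250 before to 50 after the annotated start, were taken from RefSeq (GRCm38.p6, the assembly of mm10) and covered 29 of the 36 members with 31 windows. Those of Col5a3 and of 2 head-to-head type IV pairs are shown. Col5a3 had the largest change, Col4a1 and Col4a2 rose together, and the X-linked pair has the same layout. Col4a4 and Col4a3 also lie head to head on chromosome 1 (82448419 to 82587034 and 82586921 to 82722059), but Col4a3 had no window. All windows shown run 5′ to 3′ on the gene's own strand. Capitals mark matches on either strand to the GC box, whose letters searched were GGGCGG, and to the CCAAT box, searched by its name's letters. They also mark the AP-1 motif, searched as TGANTCA, the TATA box, searched as TATAAA, and the NF-kappaB consensus. The windows are chr8:11312777-11313076 for Col4a1 (minus strand) and chr8:11312555-11312854 for Col4a2 (plus strand).
Col4a1: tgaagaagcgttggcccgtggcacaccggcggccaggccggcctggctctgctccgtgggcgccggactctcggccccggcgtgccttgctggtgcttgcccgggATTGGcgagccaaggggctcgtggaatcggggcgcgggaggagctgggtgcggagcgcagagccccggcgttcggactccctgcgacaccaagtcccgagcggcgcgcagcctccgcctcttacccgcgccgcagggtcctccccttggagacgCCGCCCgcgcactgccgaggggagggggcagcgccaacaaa
Col4a2: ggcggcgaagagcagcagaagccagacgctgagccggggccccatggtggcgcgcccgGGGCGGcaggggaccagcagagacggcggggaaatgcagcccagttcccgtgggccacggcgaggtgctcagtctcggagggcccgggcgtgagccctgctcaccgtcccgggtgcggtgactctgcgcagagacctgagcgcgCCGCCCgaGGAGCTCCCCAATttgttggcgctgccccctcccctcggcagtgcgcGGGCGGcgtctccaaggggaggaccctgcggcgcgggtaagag
The X-linked windows are chrX:141475169-141475468 for Col4a5 (plus strand) and chrX:141474027-141474326 for Col4a6 (minus strand).
Col4a5: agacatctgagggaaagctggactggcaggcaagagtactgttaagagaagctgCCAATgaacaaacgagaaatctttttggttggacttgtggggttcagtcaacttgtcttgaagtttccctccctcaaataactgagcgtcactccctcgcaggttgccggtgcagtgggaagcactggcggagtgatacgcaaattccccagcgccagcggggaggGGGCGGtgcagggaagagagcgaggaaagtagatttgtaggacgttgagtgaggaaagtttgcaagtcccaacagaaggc
Col4a6: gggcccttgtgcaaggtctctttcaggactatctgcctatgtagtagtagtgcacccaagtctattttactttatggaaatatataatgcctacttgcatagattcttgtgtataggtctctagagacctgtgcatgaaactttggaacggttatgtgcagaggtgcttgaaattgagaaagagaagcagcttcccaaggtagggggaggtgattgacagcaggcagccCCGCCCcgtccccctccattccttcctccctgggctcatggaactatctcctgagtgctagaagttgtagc
The window of Col5a3 is chr9:20815018-20815317 (minus strand).
Col5a3: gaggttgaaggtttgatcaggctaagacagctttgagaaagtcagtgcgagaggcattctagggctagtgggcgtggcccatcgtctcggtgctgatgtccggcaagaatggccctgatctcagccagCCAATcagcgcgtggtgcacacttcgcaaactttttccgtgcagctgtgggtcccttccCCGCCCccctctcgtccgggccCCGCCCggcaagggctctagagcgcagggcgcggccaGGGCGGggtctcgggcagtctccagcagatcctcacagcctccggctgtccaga

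The start sites of the Col4a1 and Col4a2 windows lie 21 bases apart and the windows share 78 bases, whereas those of Col4a6 and Col4a5 lie 1343 bases apart and share none. Every one of the 5 windows held a GC box, a motif present in 35.7% of all 32851 windows and in 19 of the 31 member windows (61.3%). The only box of the Col4a1 window lies in the bases shared with the Col4a2 window and is marked in both. Median GC content was 60.0% over the member windows and 52.7% over all windows. A CCAAT box was found in all but the Col4a6 window, a motif present in 37.4% of all windows and in 11 of the 31 member windows (35.5%). The Col4a2 window held a match to the NF-kappaB consensus, which overlaps its CCAAT box. Such a match was present in 8.46% of all windows and in 4 of the member windows. The letters of AP-1 were found in 1 member window, that of Col6a1, and TATAAA in 3, against 7.81% and 13.6% of all windows. A match describes letters only, and none of the windows was tested for binding.

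Of the 5 tested FACIT collagens 0 rose and 4 fell, where 24.5% of all tested genes rose and 22.2% fell, and the call of Col20a1 among the 4 was not stable. Col12a1 (chromosome 9, 79598987 to 79721141), which encodes the long type XII chain of dense connective tissue and the joint surface, had 200, 197 and 194 FPKM with Sema4D and 245, 245 and 245 FPKM in control. The control libraries differed by less than 1 FPKM, and Col12a1 fell (-0.31, SE 0.024, adjusted p = 1.37e-05). Col14a1 (chromosome 15, 55307644 to 55520803), of the related type XIV, had 15.1, 14.6 and 15.5 FPKM with Sema4D and 25.6, 26.95 and 23.9 FPKM in control. It had the lowest log2 fold change of the tested members on this scale (-0.72, SE 0.049, adjusted p = 6.87e-06). With a pseudocount of 0.1 Col14a1 stood at -0.75, while Col22a1 was at -0.79 and Col26a1 at -0.96. Col22a1, a collagen of tissue junctions (chromosome 15, 71795795 to 72150979), had 1.68, 1.39 and 1.72 FPKM with Sema4D and 2.75, 2.79 and 2.89 FPKM in control (-0.56, adjusted p = 0.000414). None of these groups overlapped.

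Col20a1, a little-studied FACIT gene (chromosome 2, 180983323 to 181017545), was close to the threshold, with 1.38, 1.18 and 1.22 FPKM with Sema4D and 1.54, 1.68 and 1.87 FPKM in control (-0.25, adjusted p = 0.0341; -0.40 with a pseudocount of 0.1). It lost the call without Sema4D replicate 2 (adjusted p = 0.0897) or 3 (0.0788) and without control replicate 2 (0.0754) or 3 (0.113), while the alternatives spanned 0.0315 to 0.113. Col16a1, the type XVI chain, had 67.5, 61.0 and 63.3 FPKM with Sema4D and 67.3, 74.4 and 67.2 FPKM in control. Its groups overlapped, and it did not pass (-0.12, adjusted p = 0.0900), though it did without Sema4D replicate 1 (adjusted p = 0.0460, where the alternatives spanned 0.0460 to 0.258). The FACIT sum was 279 ± 5.65 FPKM with Sema4D and 345 ± 5.45 FPKM in control (exact p = 0.10), of which Col12a1 was the larger part.

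The 3 expressed type VI chains of the beaded filaments held no call in either direction, where 46.7% of all tested genes were called. Col6a1 had 648, 625 and 646 FPKM with Sema4D and 611, 665 and 646 FPKM in control (log2 fold change -0.00164, 95% interval -0.08 to 0.08, adjusted p = 0.973). Col6a2 had 493, 469 and 483 FPKM with Sema4D and 487, 542 and 524 FPKM in control (-0.10, 95% interval -0.20 to -0.01, adjusted p = 0.0716). Col6a3, the long chain, had 162, 157 and 158 FPKM with Sema4D and 153, 161 and 159 FPKM in control (0.01, 95% interval -0.05 to 0.08, adjusted p = 0.785). In all 3 the groups overlapped, and the 95% intervals reached no further than -0.20 and 0.08 on the log2 scale. After quantile normalization all 3 would be called lower, at -0.15, -0.30 and -0.11. Col6a2 also passed without control replicate 1 (-0.15, adjusted p = 0.00919, where the alternatives spanned 0.00101 to 0.216).

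Col6a3 stood at 0.248 ± 0.00339 of Col6a1 with Sema4D and 0.246 ± 0.00451 in control, and these overlapped (exact p = 0.60). The Col6a1 to Col6a2 ratio, however, did not overlap, at 1.33 ± 0.0124 with Sema4D and 1.24 ± 0.0147 in control (exact p = 0.10). The beaded filament genes took 11.5% ± 0.111 of the members' summed FPKM with Sema4D and 11.1% ± 0.0974 in control, without overlap (exact p = 0.10). The alternative long chains Col6a4, Col6a5 and Col6a6 were far lower. Col6a4 was listed at 0 in all 6 libraries, Col6a5 at 0.0131 FPKM or less, and Col6a6 at 0.181 to 0.217 FPKM with Sema4D and 0.118 to 0.164 FPKM in control.

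**Figure D3:**
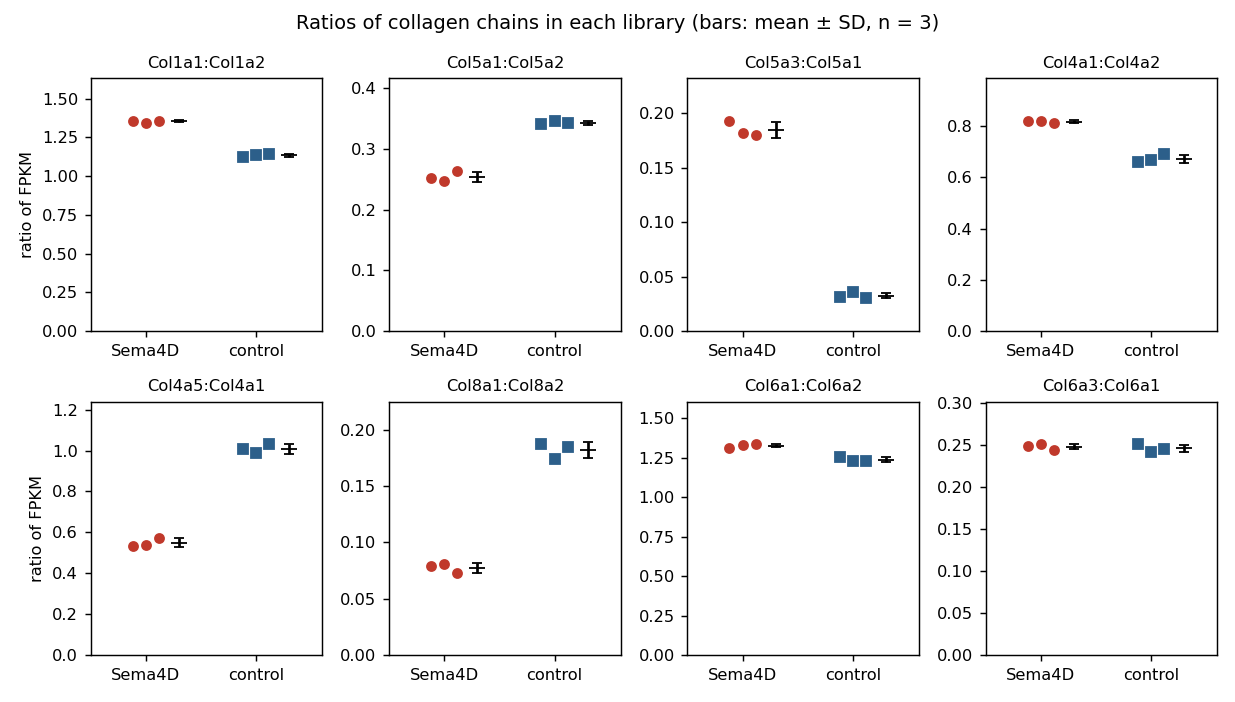
Ratios of FPKM between pairs of collagen chains in each library, on axes that start at 0. Sema4D libraries are circles and control libraries squares, and the bars give the mean and SD of 3 libraries. The groups separate in every panel except Col6a3 to Col6a1, and Col5a3 to Col5a1 is 5.66-fold higher with Sema4D.

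Among the other classes, the short-chain network collagens of type VIII moved apart. Col8a2 (chromosome 4, 126286794 to 126314330), whose chain is known from the corneal Descemet membrane, had 82.2, 77.5 and 80.2 FPKM with Sema4D and 55.9, 57.4 and 58.9 FPKM in control. It rose (0.47, SE 0.034, adjusted p = 9.28e-06). Col8a1 (chromosome 16, 57624256 to 57754737), its partner chain, had 6.46, 6.23 and 5.81 FPKM with Sema4D and 10.5, 9.98 and 10.9 FPKM in control. It fell (-0.68, SE 0.053, adjusted p = 1.69e-05). Neither gene's groups overlapped, and the Col8a1 to Col8a2 ratio was 0.0772 ± 0.00415 with Sema4D and 0.182 ± 0.0071 in control (exact p = 0.10).

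The multiplexins, proteoglycan-like collagens of basement membrane zones, also differed from each other. Col18a1 (chromosome 10, 77052178 to 77166530), whose chain is the precursor of the angiogenesis inhibitor endostatin, had 23.2, 20.5 and 20.5 FPKM with Sema4D and 11.2, 12.8 and 12.1 FPKM in control. It rose 1.78-fold by mean FPKM (0.78, SE 0.063, adjusted p = 1.87e-05). Col15a1 had 5.32, 3.95 and 5.37 FPKM with Sema4D and 5.41, 6.23 and 5.55 FPKM in control. The groups were separated by a narrow gap and the change was not past the threshold (-0.20, SE 0.103, adjusted p = 0.142). Without Sema4D replicate 2, its lowest library, the value was -0.08 (adjusted p = 0.382, where the alternatives spanned 0.0823 to 0.382). The Col18a1 to Col15a1 ratio was 4.46 ± 0.693 with Sema4D and 2.10 ± 0.0755 in control (exact p = 0.10, chosen after the values were seen), with that same replicate the highest at 5.19. Col26a1, the secreted type XXVI chain with an EMI domain (chromosome 5, 136741759 to 136883376), had 0.890, 0.716 and 0.658 FPKM with Sema4D and 1.57, 1.81 and 1.31 FPKM in control, with a log2 fold change of -0.54 (adjusted p = 0.00262) and of -0.96 with a pseudocount of 0.1. It is counted among the 9 falls but passed the filter only through the control libraries. Its call is therefore no evidence of a fall among the members, and without it 8 of 21 fell.

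The 14 members below the filter are given per library or by range, since 1 fragment on 1 kilobase was worth 0.0603 to 0.0803 FPKM. The largest gap was that of Col23a1, a transmembrane collagen (chromosome 11, 51289679 to 51583925), with 0.702, 0.709 and 0.975 FPKM in Sema4D libraries and 0.0812, 0.209 and 0.142 FPKM in control libraries. On its longest GENCODE transcript this is an estimated 65.8, 61.9 and 77.1 fragments with Sema4D and 5.73, 19.1 and 12.5 in control. With no filter on low values it was called higher (log2 fold change 0.65, adjusted p = 0.000629), and its ratio of mean FPKM was 5.52. Col24a1, a fibrillar chain known from bone, had 1.14, 0.927 and 0.928 FPKM with Sema4D and 0.693, 0.791 and 0.695 FPKM in control, and was also called higher with no filter (0.21, adjusted p = 0.0392). So was the FACIT gene Col19a1, with 0.107, 0.144 and 0.178 FPKM with Sema4D and 0.0357, 0.0608 and 0.0173 FPKM in control (0.14, adjusted p = 0.0181), an estimated 9.68 to 13.5 fragments with Sema4D and 1.46 to 5.32 in control, so few that its size of change is uncertain.

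The remaining low members were not called with or without the filter. Col7a1, of the anchoring fibrils of skin, ranged from 0.270 to 0.327 FPKM with Sema4D and 0.230 to 0.370 FPKM in control. Col17a1, of hemidesmosomes, ranged from 0.213 to 0.350 FPKM with Sema4D and 0.290 to 0.317 FPKM in control. Col25a1, a transmembrane collagen, lay at 0.148 to 0.218 FPKM with Sema4D and 0.219 to 0.286 FPKM in control, without overlap but with an adjusted p of 0.0901. Col28a1 was at 0.0653 to 0.0888 FPKM with Sema4D and 0.0551 to 0.178 FPKM in control. Col13a1 was listed at 0 in all 3 Sema4D libraries and at 0.0268, 0 and 0.0646 FPKM in the control libraries, an estimated 3.18 fragments at most. Epithelial markers, the usual company of types VII and XVII, summed to 0.126 to 0.255 FPKM with Sema4D and 0.328 to 0.447 FPKM in control.

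**Figure D4:**
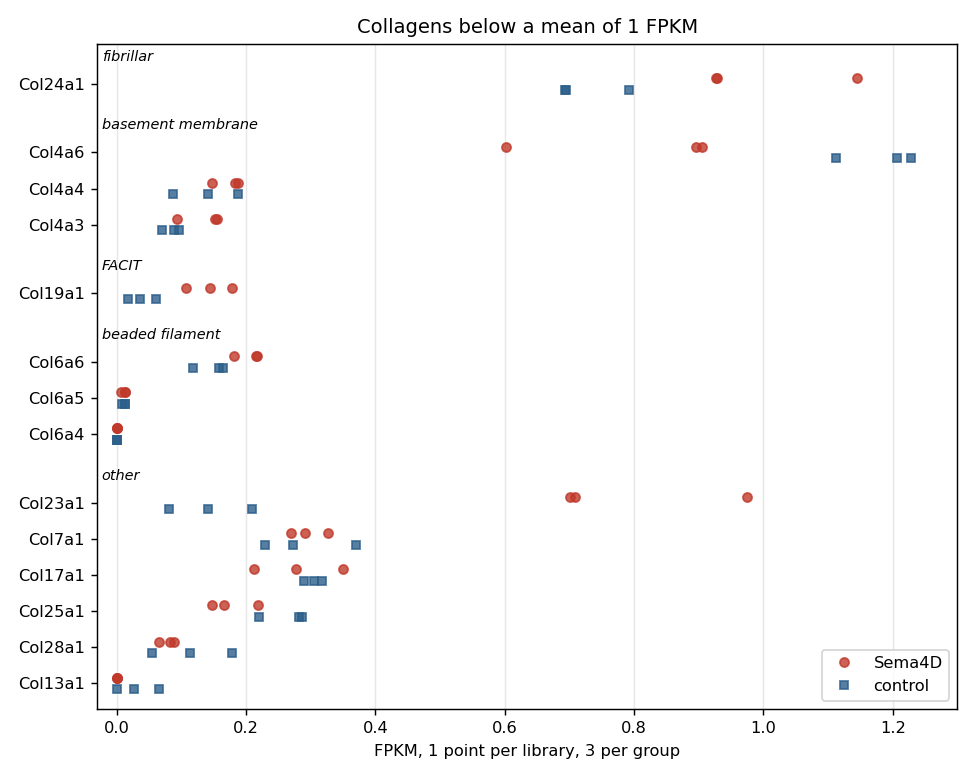
FPKM of the 14 collagens with a mean below 1 FPKM in each library, by class. Sema4D libraries are circles and control libraries squares. Col23a1 is the gene with the widest gap, 0.702 to 0.975 FPKM with Sema4D and 0.0812 to 0.209 FPKM in control, while Col6a4 is at 0 throughout.

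Summed over all 36 members, the level was 11452, 10966 and 11106 FPKM in Sema4D libraries and 11386, 12218 and 11959 FPKM in control libraries, and the groups overlapped (exact p = 0.20). As a share of all FPKM they took 2.17%, 2.11% and 2.13% in Sema4D libraries and 2.30%, 2.48% and 2.43% in control libraries. These shares were lower with Sema4D without overlap (exact p = 0.10), while total FPKM was higher in every Sema4D library than in any control library. The 8 cartilage collagens, all of which were tested and fell (log2 fold changes -0.79 to -0.26), summed to 11549 ± 507 FPKM with Sema4D and 14097 ± 624 FPKM in control (exact p = 0.10). The sum of the members was 0.952, 0.995 and 0.958 times that of the cartilage collagens in Sema4D libraries and 0.846, 0.831 and 0.846 times in control libraries. The groups did not overlap (exact p = 0.10). This ratio rests mostly on the type I chains, at 59.5% of the members' sum with Sema4D and 63.6% in control, and on Col2a1, at 76.2% of the cartilage sum with Sema4D and 74.5% in control. Col1a1 stood at 0.428, 0.444 and 0.432 times Col2a1 in Sema4D libraries and at 0.383, 0.377 and 0.386 times in control libraries (exact p = 0.10), while Col1a1 itself was not called. Col1a2 went the other way, at 0.316, 0.3300 and 0.318 times Col2a1 in Sema4D libraries and 0.340, 0.331 and 0.338 times in control libraries, also without overlap (exact p = 0.10). Both ratios to Col2a1 were chosen after the values were seen. By class, the basement membrane sum was 89.1 ± 3.07 FPKM with Sema4D and 78.3 ± 5.11 FPKM in control, and the sum of the other class 114.8 ± 4.52 FPKM with Sema4D and 88.3 ± 2.45 FPKM in control, both without overlap (exact p = 0.10).

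Genes that act on collagens were read from lists chosen for this work, in the same fit. Of 13 collagen receptor genes, 10 were tested, 0 rose and 7 fell (median log2 fold change -0.31), where 24.5% of all tested genes rose and 22.2% fell. The genes with the smallest p were the adhesion receptor gene Adgrg6, which binds type IV collagen (28.1 ± 0.131 FPKM with Sema4D and 38.3 ± 0.0706 FPKM in control, -0.43), and the integrin chain genes Itga10, of cartilage (21.0 ± 0.250 FPKM with Sema4D and 29.0 ± 0.860 FPKM in control, -0.45), and Itga11, of fibroblasts (-0.54). Next was Adgrg1, a receptor for type III collagen (0.471 ± 0.0436 FPKM with Sema4D and 1.58 ± 0.224 FPKM in control, -0.81). Adgrg1 passed the filter only through the control libraries, and without it 6 of 9 receptor genes fell. The discoidin receptor genes Ddr1 (0.12, adjusted p = 0.0626) and Ddr2 (-0.09, adjusted p = 0.0694) did not pass, nor did Itgb1, the common integrin beta chain.

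Of 11 genes of procollagen processing, 7 were tested, of which 2 rose (28.6%) and 4 fell (57.1%, median -0.11), the share of rises being near the 24.5% of all tested genes. Pcolce2 (47.7 ± 1.11 FPKM with Sema4D and 80.2 ± 0.951 FPKM in control, -0.74) and Pcolce (-0.17), which enhance removal of the C-propeptide, fell. The N-proteinase genes Adamts2 (0.18) and Adamts14 (0.27) rose. The 4 falls were 2 without Sema4D replicate 2, control replicate 2 or control replicate 3. Of 17 other basement membrane genes, 12 were tested, of which 4 rose (33.3%) and 5 fell (41.7%, median 0.08), beside 24.5% and 22.2% of all tested genes. The laminin chain gene Lamb1 (24.4 ± 0.637 FPKM with Sema4D and 17.998 ± 0.110 FPKM in control, 0.42) and the nidogen gene Nid1 (0.21) rose, while Nid2 (100.2 ± 2.19 FPKM with Sema4D and 137.3 ± 3.73 FPKM in control, -0.45) and Lama4 (-0.21) fell. With no filter on low values 7 rose.

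Of 16 genes whose products bind collagen fibrils and affect their assembly, 15 were tested, of which 4 rose (26.7%, near the 24.5% of all tested genes) and 8 fell (53.3%, against 22.2%), with a median of -0.08, against 0.01 over all tested genes. The small proteoglycan genes Omd (17.7 ± 0.238 FPKM with Sema4D and 51.0 ± 2.09 FPKM in control, -1.48), Ogn (-1.41) and Aspn (-1.73) fell. Dcn, whose product decorin binds type I fibrils, rose (357 ± 5.98 FPKM with Sema4D and 249.2 ± 8.74 FPKM in control, 0.52). Dcn, Lum and Dpt are also among the fibroblast markers above, and Fmod is among the tendon and ligament markers. Sparc is on both this list and that of basement membrane genes.

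**Figure D5:**
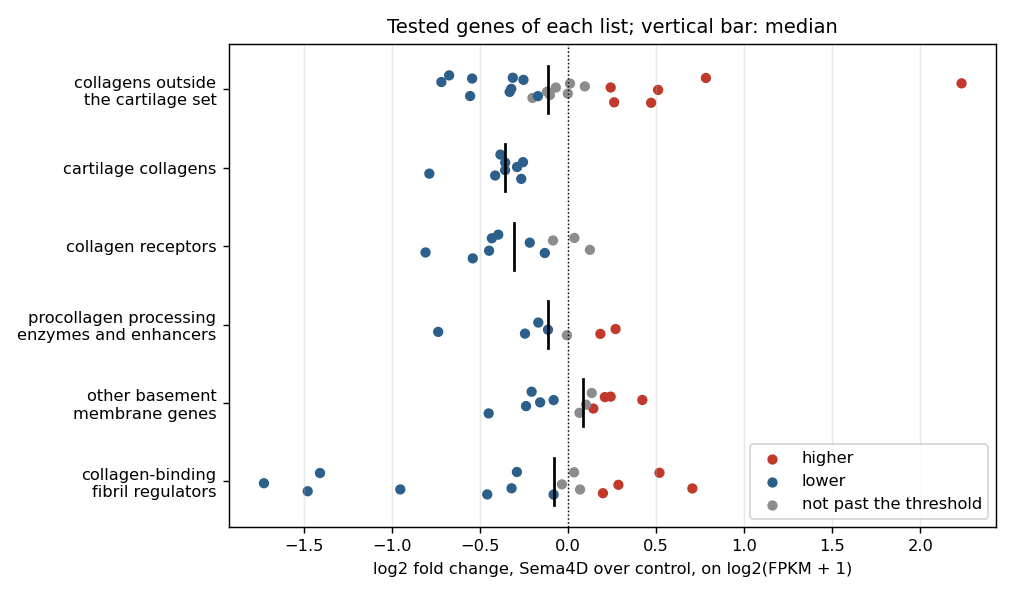
Log2 fold changes of the tested genes of 6 lists, on the log2(FPKM + 1) scale, positive meaning higher with Sema4D. Each point is a gene, coloured by its call, and the vertical bars are medians. The collagens outside the cartilage set range from -0.72 to 2.23, while the 8 cartilage collagens all lie between -0.79 and -0.26.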

How the data were processed

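RNA-seq was done on total RNA of 3 Sema4D and 3 control libraries. The authors deposited FPKM, 1 column per library, for 24346 gene symbols. The submitters' processing notes list, without roles, Cufflinks 2.2.1, TopHat2 2.0.13, SAMtools 0.1.19, Bowtie2 2.2.3 and the build mm10. No source used here gives the annotation, strand setting or filters, so overlapping or antisense genes cannot be told apart. FPKM columns summed to 518901 to 527492 with Sema4D and 492708 to 494123 in control. Between any pair of libraries 0.112% to 0.293% of tested genes were identical, and no library was counted as a duplicate.

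Values were used as deposited. The 11603 genes averaging 1 FPKM or more were tested with limma 3.58.1 (trend, two-sided, no replicate block) in R 4.3.3 on log2(FPKM + 1). Fold changes on that scale understate low genes. Benjamini-Hochberg adjustment ran over all tested genes, with 0.05 as the threshold. The fit was tested on simulated data whose noise was independent between genes and libraries. That test does not cover effects shared by libraries or replicates that are technical. Sums and ratios per library used exact permutation tests in scipy 1.17.1. Depth was estimated from 1684 genes with 1 long GENCODE M21 transcript. Of their 224 to 258 low values per library 77.8% to 83.3% lay within 0.15 of whole fragments, too few to recover counts. Gene positions and promoter windows are RefSeq's, GRCm38.p6, where all 36 members matched.

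Members and lists were chosen with earlier results of these data known. Every member was named by rule, and from each partner list up to 4 called genes with the smallest p. Other genes (Ddr1, Ddr2, Itgb1 and single cell type markers) were named after their values were seen. Alternatives were another pseudocount, filter or scaling, a replicate block and leaving out each library.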

Additional observations from a re-analysis of the deposited data

How the results depend on the processing

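Of the 15 members called, 14 kept their direction and their side of the threshold under every alternative run in which they were tested, and Col20a1 did not. Members that rose numbered 6 to 9 and those that fell 6 to 12 over the alternatives, against 6 and 9 as reported. Rises outnumbered falls only with a mean of at least 5 FPKM, at 7 and 6. With no filter on low values 9 of 35 rose and 10 fell, beside 3006 rises and 2786 falls among all 17461 genes of that fit. The 7 members that were not called included Col6a1 and Col6a3, whose near-zero changes turned sign. With libraries left out Col6a1 ranged from -0.0349 to 0.0254 and Col6a3 from -0.00873 to 0.0251. Col6a1 was at 0.0146 without Sema4D replicate 2, 0.0254 without control replicate 2 and 0.00461 without control replicate 3. Col6a3 was at -0.00195 without Sema4D replicate 1, -0.00873 without control replicate 1 and -0.106 after quantile normalization. Median-ratio scaling moved no member's call. For the receptor list, rises were 0 to 1 when libraries were left out. For the processing list, the fall count was 2 with a replicate block and 2 to 3 with libraries left out, and its rises were 1 with a mean of at least 5 FPKM. For other basement membrane genes there were 7 rises with no filter. The causes were not tested.

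With the replicate block 6 members rose and 8 fell, since Col20a1 lost its call (adjusted p = 0.0703). The replicate numbers showed no clear pairing of the samples, with same-numbered libraries' deviations correlating at 0.14, -0.08 and -0.05. Sema4D replicate 1 was the only Sema4D library that correlated best with its own number. Deviations from a mean of only 3 libraries cannot decide whether weak pairing was present. At the estimated depth, members at 0 or a few fragments, Col19a1 included, allow no firm statement on change, and depth covers counting error only.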
